A study of Arabidopsis thaliana with 6 samples.

Results

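*M17* (AT2G41260) and *ICL* (AT3G21720) are 2 genes of the passage from seed to seedling, chosen by name, as the probe sets annotated to exactly 1 of them, out of 13350 named genes on the array. Each had 1 probe set, and both passed the filter on dim signals, as did 17059 of 22746 probe sets. Both genes were selected on measured values, since their signals on single arrays and their differences between the genotypes were already known when they were proposed, so their levels and differences are given as a description, with no p-value. The study compared whole Arabidopsis seedlings, light-grown and 5 days old, of the *fbp7-3* mutant in the Nossen background with Nossen (No-0) wild type seedlings of the same age. There were 3 mutant and 3 wild type samples, each on 1 ATH1 array. The labels give no treatment and name a single mutant allele of *FBP7*, an F-box protein gene. The annotation used here pairs no probe set with *FBP7*, so its own level was not checked.

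Late embryogenesis abundant (LEA) proteins build up as seeds mature and dry, are associated with tolerance of drying, and are normally lost after germination. Isocitrate lyase, encoded by *ICL*, splits isocitrate in the glyoxylate cycle of the glyoxysome, the step by which an oil-storing seedling keeps carbon from fatty acids for making sugar. Both kinds of transcript usually decline as a seedling turns green and feeds itself. *M17* encodes a protein of the LEA type and has 2 annotated transcripts in RefSeq, and *ICL* has 1, both protein-coding genes in assembly TAIR10.1.

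The arrays were alike in overall signal. Array medians lay between 188.7 and 200.7, the 25th percentile between 39.2 and 49.7, and log2 values correlated across tested probe sets at r = 0.976 to 0.980 within a group and at 0.969 to 0.976 between groups. The green tissue of a light-grown seedling was visible in the Rubisco activase gene *RCA*, whose signal averaged 26233 ± 1123 in mutant seedlings and 25714 ± 1714 in wild type seedlings (SD, n = 3 each). Signals are MAS5 intensities on a linear scale, and precision is limited by the number of arrays. The labels do not say whether the plants of a group were grown separately, so the spread given here is that between these samples. In RNA from whole seedlings, fewer cells of a type and less RNA per cell cannot be told apart.

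*M17* was low on all mutant arrays and varied widely among wild type arrays. Its signal was 124.5, 112.5 and 78.3 in mutant replicates 1, 2 and 3. In wild type replicates 1, 2 and 3 it was 399.1, 1236.4 and 201.2. Each mutant array lay below each wild type array, as it did for 8.56% of tested probe sets, and wild type replicate 2 stood far above the others. The mean was 105 ± 24.0 in mutant seedlings and 612 ± 550 in wild type seedlings (SD, n = 3 each). On the scale of log2(signal + 16), the change was −2.02 ± 0.43 (SE from limma).

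The spread of *M17* was mostly in the wild type. The highest array was 1.59-fold above the lowest within the mutant and 6.15-fold within the wild type. The SD of the log2 value was 0.30 in mutant seedlings and 1.28 in wild type seedlings, where 16 of 17059 tested probe sets had a larger one and the median was 0.17. The SE from limma borrows from probe sets of like signal, and the SE from the spread of *M17* alone was 0.76. Without wild type replicate 2 the change was −1.33, and without wild type replicate 3 it was −2.59.

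*ICL* also had a lower mean in the mutant, but its groups overlapped. Its signal was 51.1, 161.2 and 82.5 in mutant replicates 1, 2 and 3. In wild type replicates 1, 2 and 3 it was 220.3, 404.8 and 88.5. Mutant replicate 2 was above wild type replicate 3, and wild type replicate 2 was again the highest array. The mean was 98.3 ± 56.7 in mutant seedlings and 238 ± 159 in wild type seedlings (SD, n = 3 each). The log2 change was −1.05 ± 0.42 (SE from limma), or ± 0.71 from the spread of *ICL* alone.

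*ICL* varied in both groups. The highest array was 3.15-fold above the lowest in mutant seedlings and 4.57-fold in wild type seedlings, and the SDs of the log2 value, 0.71 in mutant seedlings and 1.01 in wild type seedlings, lay at the 98.0th and 99.6th percentiles of the SDs of tested probe sets. The log2 change was −0.58 without wild type replicate 2 and −1.58 without wild type replicate 3.

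**Figure D1:**
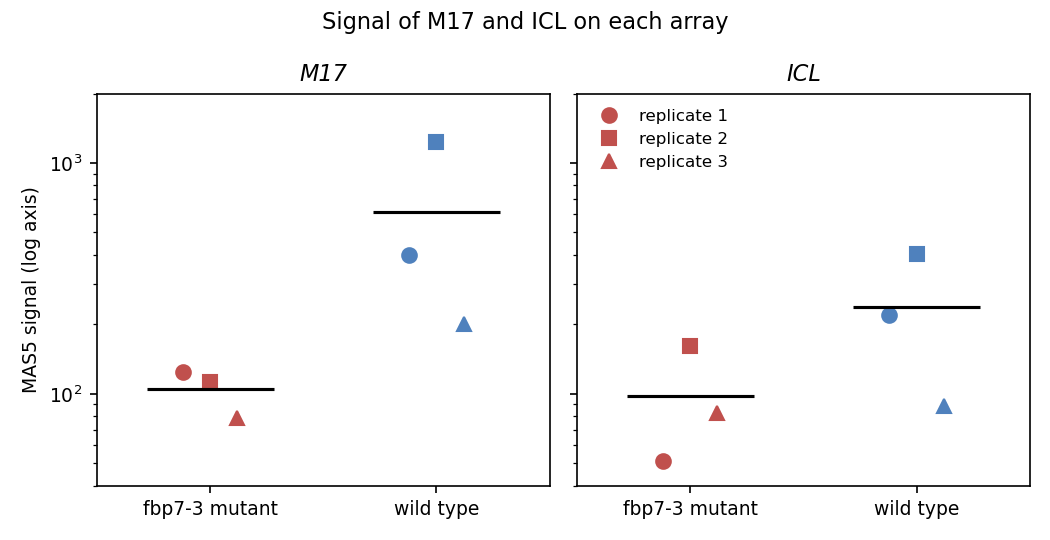
MAS5 signal (log axis) of *M17* (left) and *ICL* (right) on each array, with the mutant left of the wild type in each panel; bars are group means and symbols mark replicate numbers. *M17* lay between 78.3 and 124.5 in the mutant and between 201.2 and 1236.4 in the wild type, while the groups of *ICL* overlapped.

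An index of RNA quality, the average of log2 3′ over 5′ signal in control probe sets for actin, GAPDH and ubiquitin, moved with the genotype. It was 1.07, 1.10 and 1.33 in mutant replicates 1, 2 and 3, and 1.00, 0.88 and 0.99 in wild type replicates 1, 2 and 3. Wild type replicate 2, the array with the highest *M17* and *ICL*, had the lowest index, and mutant replicate 3, with the lowest *M17*, had the highest. With the index in the model the log2 change of *M17* was −0.99 ± 0.57 and that of *ICL* −0.61 ± 0.65 (SE).

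Whether both genes vary together between single arrays was asked next, as a sign of how far each sample had moved from seed to seedling. In the wild type both genes were highest in replicate 2, intermediate in replicate 1 and lowest in replicate 3. In the mutant the orders differed, since *M17* was highest in replicate 1, which had the lowest *ICL*. Over all 6 arrays Pearson's r of the log2 values was 0.84 and Spearman's rho 0.71, given with no p-value because the pair was proposed with single-array values known. Without wild type replicates 1 and 2, the arrays farthest from the median of *M17*, r was −0.06 over the remaining 4, so the relation rests on those 2 arrays. Without wild type replicate 2 alone r was 0.60. For deviations from the group means r was 0.76 over the 6 arrays. Within groups r was 0.97 over the 3 wild type arrays and −0.09 over the 3 mutant arrays.

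**Figure D2:**
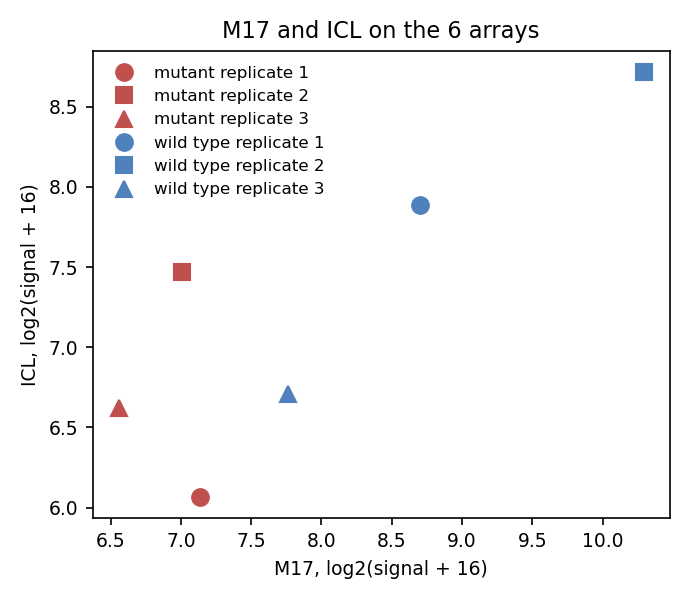
log2(signal + 16) of *M17* (x axis) against *ICL* (y axis) on the 6 arrays, with 1 point per array, coloured by genotype. Wild type replicates 1 and 2 lie at the upper right, and the other 4 arrays show no common trend (r = −0.06).

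Other probe sets reached correlations of that size over these arrays. Of the 17058 other tested probe sets, 399 (2.34%) had an r with *M17* of at least that of *ICL*, and 320 (1.88%) had an r with *ICL* of at least that of *M17*. For deviations from the group means the shares were 5.79% and 6.58%. The log2 difference between wild type replicates 2 and 3 was 2.53 for *M17* and 2.01 for *ICL*, and 10 and 24 probe sets exceeded these values. These replicates are the highest and lowest wild type arrays of both genes, so the high ranks follow from the choice of arrays. A difference above 1 was found in 256 probe sets.

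Among named genes, the pattern most like that of *M17* over the 6 arrays was that of *DELTA-VPE*, which encodes a vacuolar processing enzyme known from the seed coat (r = 0.99). Its signal was 101.2, 82.1 and 86.0 in mutant replicates 1, 2 and 3, and 216.7, 413.5 and 141.8 in wild type replicates 1, 2 and 3. AT4G23885 (r = 0.99) and *RRP41L*, related to a subunit of the RNA exosome (r = 0.98), followed. AT2G28490, a gene of the vicilin-like seed storage type, came next (r = 0.98), with signals of 109.0, 97.6 and 51.8 in mutant seedlings and 261.7, 545.5 and 106.9 in wild type seedlings. The fifth was the beta-glucosidase gene *BGLU19* (r = 0.98), at 243.9, 142.4 and 162.6 in mutant seedlings and 925.5, 2265.3 and 270.0 in wild type seedlings. In all 5 of them wild type replicate 2 was the highest array and wild type replicate 1 the next.

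These 5 genes were picked for likeness to *M17* over the same arrays, so their differences between the genotypes follow from the choice and are given without a test. The log2 change was −2.13 ± 0.49 for *BGLU19*, −1.44 ± 0.40 for AT2G28490 and −1.25 ± 0.29 for *DELTA-VPE* (SE from limma). AT4G23885 was at −0.47 ± 0.15 and *RRP41L* at −0.30 ± 0.14. As with *M17*, single wild type arrays set the size. Without wild type replicate 2 the change was −1.42 for *BGLU19* and −0.90 for AT2G28490, and without wild type replicate 3 that of *BGLU19* was −2.91.

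The genes most like *ICL* were *ATBCAT-5*, which encodes a branched-chain amino acid aminotransferase (r = 0.99), AT3G21810 (0.98), AT5G01670 (0.98), AT2G25760 (0.98) and *PDIL5-1*, of the protein disulfide isomerase family (0.98). *ATBCAT-5* had signals of 633.8, 726.5 and 682.0 in mutant replicates 1, 2 and 3, and 759.1, 871.3 and 668.9 in wild type replicates 1, 2 and 3. The log2 changes of the 5 ranged from −0.35 ± 0.18 in AT5G01670 to −0.13 ± 0.17 in AT3G21810, also without a test. No gene was among the 5 most alike of both.

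Other genes of the same pathways came from 8 lists of 224 loci, of which 66 had a probe set with 1 gene and 44 passed the filter. Setting *M17* and *ICL* aside, none of the other 42 changed (limma, adjusted p under 0.05), where 1.06% of all tested probe sets did (0.533% lower, 0.522% higher). An unadjusted p under 0.05 was reached by 12 of the 42, against 11.8% of all tested probe sets. A gene could pass the filter through 1 group alone, so the counts below describe the tested genes and not whole lists.

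Of the 18 LEA genes tested besides *M17*, 16 had a log2 change below 0, and none of the 18 passed. There were 36 measured of 52 listed. The median log2 change of the 18 was −0.46, where the median of all tested probe sets was 0.00 and 49.9% lay above 0. An unadjusted p under 0.05 was reached by 7 of the 18, all lower, where 6.24% of all tested probe sets were lower at that p. In 2 of the 18 each mutant array lay below each wild type array, near the 8.56% of all tested probe sets. The median moved with single arrays and with RNA quality. It was −0.30 without wild type replicate 2, −0.72 without wild type replicate 3 and −0.22 with the RNA quality index in the model.

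Among them, *COR15A*, which encodes a chloroplast protein of the cold response, was at −1.29 ± 0.37 (limma adjusted p = 0.134). Its signal was 344.6, 132.6 and 82.8 in mutant replicates 1, 2 and 3, and 650.8, 284.4 and 366.9 in wild type replicates 1, 2 and 3. Unlike *M17*, it was lowest in the wild type in replicate 2. *LEA18* was at −1.08 ± 0.29 (adjusted p = 0.103), with 164.4, 125.8 and 108.3 in mutant seedlings and 378.6, 428.7 and 156.3 in wild type seedlings. The dehydrin gene *LTI30*, at −0.32 ± 0.11, and the LEA gene AT3G53040, at −0.67 ± 0.29, were the 2 whose groups did not overlap (adjusted p = 0.242 and 0.378). Closer to 0 were the dehydrin genes AT1G54410, at −0.11 ± 0.09, and *COR47*, at 0.07 ± 0.10. Without mutant replicate 1, *COR15A* and *COR15B* fell (limma adjusted p = 0.00386 and 0.0204). Without wild type replicate 3, *LEA18* and AT3G02480 fell (limma adjusted p = 0.00253 and 0.0153). Over all tested probe sets, 248 changed without mutant replicate 1 and 141 without wild type replicate 3. In the other fits with an array left out, none of the 18 passed.

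The wild type arrays separated several LEA genes in the way they separated *M17*. Of the 18, 7 had the order of wild type replicate 2 above 1 above 3 (38.9%), against 16.6% of all tested probe sets. An r with *M17* of at least 0.8 was found in 6 (33.3%), against 3.61% of all tested, and with *ICL* in 3 (16.7%), against 2.95%. The highest r with *M17* were those of AT3G17520 (0.96), *LEA18* (0.94) and AT2G46140 (0.94), and AT3G15670 had the highest r with *ICL* (0.97). With the 6-array mean of each gene subtracted, the list had a median of −0.03, −0.22 and −0.24 in mutant replicates 1, 2 and 3, and 0.42, 0.35 and −0.16 in wild type replicates 1, 2 and 3. Wild type replicate 3 lay below mutant replicate 1.

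**Figure D3:**
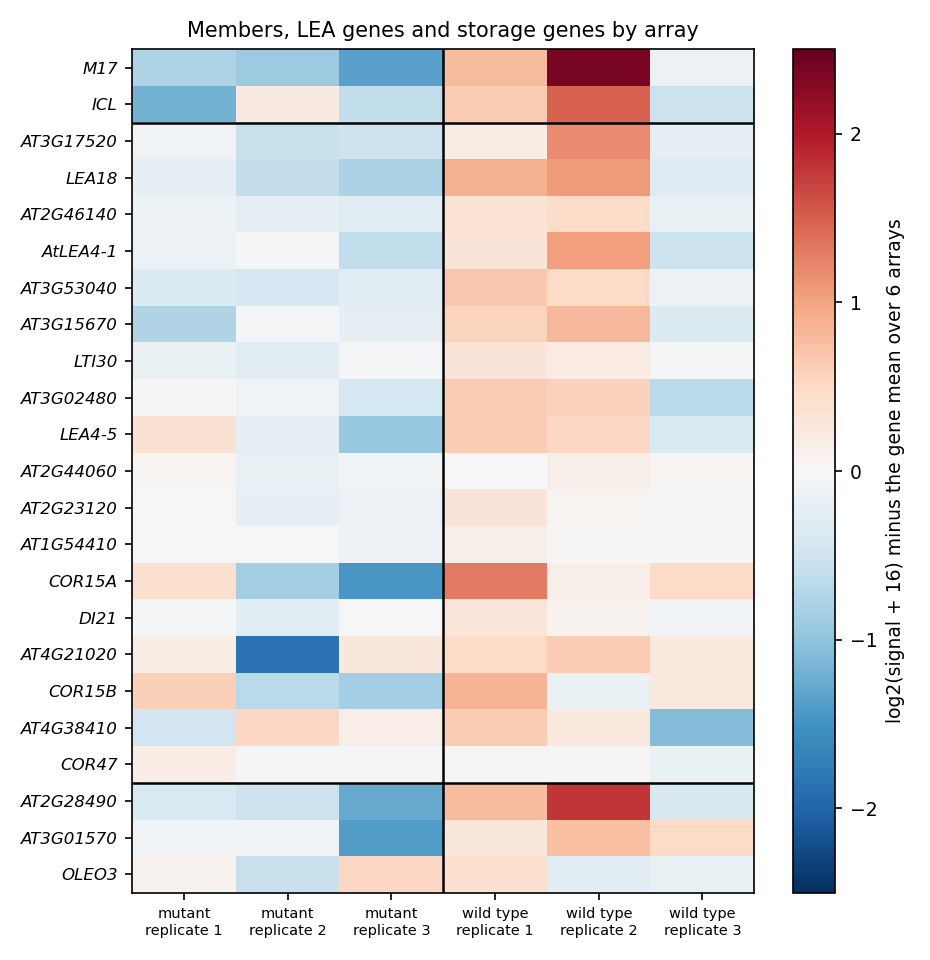
log2(signal + 16) minus the mean of each gene over the 6 arrays (colour scale), for *M17* and *ICL* (top rows), 18 LEA genes ordered by r with *M17* (middle) and 3 storage and oil body genes (bottom); mutant arrays stand left of wild type arrays. Wild type replicate 2 is the highest array for *M17*, *ICL*, AT3G17520 and AT2G28490, while *COR47* is nearly even.

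A further 17 LEA genes were too dim to be tested, with signals between 1.0 and 89.6. They included *M10*, the listed LEA gene of the same small family as *M17*, whose signal was 1.4 to 7.3 over all arrays. AT2G42560 was also among them, at 7.8, 3.6 and 2.7 in mutant seedlings and 37.4, 77.2 and 2.7 in wild type seedlings, where wild type replicate 2 was again the highest. Other dim LEA genes went the other way. AT3G53770, AT4G36600, AT2G23110, AT2G03850 and *M10* had higher means in the mutant. AT3G53770 averaged 33.2 ± 17.9 in mutant seedlings and 25.8 ± 21.1 in wild type seedlings (SD, n = 3 each).

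Seed storage and oil body genes were thinly covered, with 7 of 26 measured and 3 tested. AT2G28490, given above, had a log2 change of −1.44 ± 0.40. AT3G01570, an oleosin family gene, was at −1.02 ± 0.37 (limma adjusted p = 0.279), and the oleosin gene *OLEO3* was at 0.04 ± 0.33. AT3G01570 had signals of 51.3, 51.0 and 11.0 in mutant seedlings and 69.8, 103.4 and 83.8 in wild type seedlings, with no overlap. AT2G28490 was picked for likeness to *M17* over the same arrays, so its change is given without a test here too. Its log2 change was −0.90 without wild type replicate 2, and was further below 0 without wild type replicate 3 than over all arrays. Among the 4 dim members, AT4G36700, a cupin family gene, was at 4.6, 2.7 and 2.6 in mutant seedlings and 26.5, 53.1 and 2.4 in wild type seedlings. The other 3 dim members had higher means in the mutant. The cruciferin gene AT1G03890 was at 38.4, 30.4 and 40.5 in mutant seedlings and 12.1, 4.8 and 3.7 in wild type seedlings, all below the 25th percentile of their arrays. AT2G18540 averaged 37.7 ± 6.65 in mutant seedlings and 13.9 ± 16.8 in wild type seedlings, and *PAP85* averaged 40.6 ± 23.7 in mutant seedlings and 17.9 ± 20.4 in wild type seedlings (SD, n = 3 each). The median log2 change of the list was −1.02 over the 3 tested genes and 0.04 over all 7 with no filter. Over the 3 it was −0.59 without mutant replicate 3 and −0.35 with the RNA quality index in the model.

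Few metabolic partners of *ICL* were measured, and none of the 3 tested passed. *PPDK*, which encodes pyruvate orthophosphate dikinase, was the single other tested gene of 14 listed for the glyoxylate cycle and gluconeogenesis. Its signal was 1287.3, 1504.8 and 1533.9 in mutant replicates 1, 2 and 3, and 1511.0, 1338.9 and 1504.1 in wild type replicates 1, 2 and 3, with a log2 change of −0.01 ± 0.10. In lipid mobilisation and beta-oxidation, 2 of 24 were tested. *AIM1*, a multifunctional enzyme of beta-oxidation, was at 0.11 ± 0.10, and *SDP1*, the triacylglycerol lipase of oil bodies, at −0.01 ± 0.13. The dim *SDP1-LIKE* had signals of 1.9 to 64. The only tested regulator of seed maturation, *EEL*, a bZIP transcription factor, was at 0.07 ± 0.20.

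None of the 12 tested genes of the self-feeding seedling passed. Coverage was thin, with 4 tested of 19 listed for photorespiration and leaf peroxisomes and 8 of 55 for nuclear photosynthesis. The 4 tested genes of photorespiration and leaf peroxisomes lay between −0.15 and −0.04, among them *HPR*, hydroxypyruvate reductase, at −0.15 ± 0.09 and AT1G32470, a glycine cleavage H-protein gene, at −0.14 ± 0.10. The 8 nuclear photosynthesis genes had a median of 0.06, with the light-harvesting genes *LHCB4.2* at 0.32 ± 0.12 and *LHCB4.1* at 0.24 ± 0.10 (limma adjusted p = 0.285 and 0.345). Log2 changes were below 0 in 3 of the 8, among them the third light-harvesting gene, *LHCB4.3*, at −0.21 ± 0.19, and the Calvin cycle gene *SBPASE*, at −0.18 ± 0.09, whose mutant arrays all lay below the wild type arrays. *LHCB4.3* and *SBPASE* were named after their values were seen. The groups of *LHCB4.1* did not overlap either, with each mutant array above each wild type array. The direction of *SBPASE*, each mutant array below each wild type array, was found in 8.56% of all tested probe sets. The share with the direction of *LHCB4.1* was not counted, so its lack of overlap has no such share beside it. With quantile normalization the median of the 8 was −0.04. The median r of the 8 was −0.40 with *M17* and −0.71 with *ICL*, against 0.00 and 0.01 over all tested probe sets. The 8 were split, with r from −0.78 to 0.72 with *M17* and from −0.96 to 0.64 with *ICL*. Among those above 0 were *SBPASE* (0.72 with *M17* and 0.64 with *ICL*) and *LHCB4.3* (0.17 and 0.57). None of these 12 genes had its highest signal in wild type replicate 2, where 16.3% of all tested probe sets did.

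Root and root hair markers also had log2 changes below 0, in all 5 tested of 17 listed, with a median of −0.30 and none past the threshold. The peroxidase gene AT3G49960 was at −0.75 ± 0.25 (limma adjusted p = 0.218). The median was −0.63 without wild type replicate 3, −0.50 without mutant replicate 1, −0.16 without mutant replicate 2 and −0.14 without wild type replicate 1. With the RNA quality index in the model the median was −0.40. The root hair expansin gene *EXPA18* was at −0.30 ± 0.18 (adjusted p = 0.558). The summed signal of the 5 was 1083.4 to 1598.7 in the mutant and 1246.1 to 2094.5 in the wild type, and none was at 0. AT3G49960 had an r of 0.93 with both *M17* and *ICL*, and was the only 1 of the 5 with an r of at least 0.8. The median r of the 5 was 0.66 with *M17* and 0.36 with *ICL*, and AT3G01190 had an r of −0.04 with *ICL*. In wild type replicate 2, 3 of the 5 were highest, against 16.3% of all tested probe sets. The part of organ proportions in the differences of *M17* and *ICL* was not tested.

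**Figure D4:**
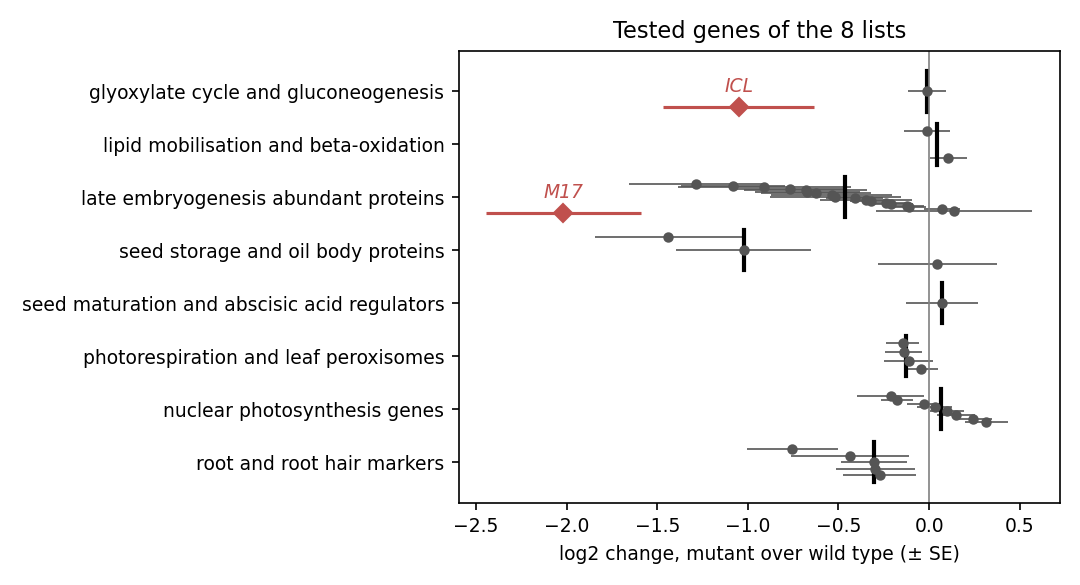
log2 change, mutant over wild type, with SE, of the tested genes of 8 lists; grey points are single genes, black bars list medians without *M17* and *ICL*, and red diamonds *M17* (−2.02) and *ICL* (−1.05). LEA genes have a median of −0.46, while the tested partners of *ICL* lie near 0.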

How the data were processed

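Total RNA of 5-day-old seedlings was hybridised to ATH1 arrays. The authors deposited 1 signal intensity per probe set and array, made with MAS5 per the submitters' processing notes, with version and settings not given in the sources used here. The mean without the lowest and highest 2% was 500 on each array, so the authors had scaled the arrays alike. Gene names came from the platform annotation, of whose 13513 probe sets with 1 gene 13436 were found in RefSeq (TAIR10.1). A further 503 had several genes, 8730 were not listed and 64 controls were left out.

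Values were taken as log2(signal + 16) of the deposited intensities. Probe sets in the lowest 25% of mean log2 value were left out. Groups came from the sample titles, and limma 3.58.1 (R 4.3.3) tested their difference (intensity trend, group as the single term, Benjamini-Hochberg over 17059 probe sets). The brightest probe set stood for each gene. In 10 simulations the fit recovered 81.6% of log2 changes of size 1 and 98% of those of size 2. Of its calls there, 6.6% were false. These shares are over all 17059 probe sets, whose median SD of the log2 value in the wild type was 0.17. They give no rate for genes as variable as *M17* (1.28) and *ICL* (1.01) or for the listed genes. Figures used matplotlib 3.10.9.

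The genes, lists and tests were chosen with earlier results of these data known, so no p-value is given for *M17*, *ICL* or their correlation, although a permutation test of that correlation had been planned. Named genes were *M17* and *ICL*, the 5 named genes with the highest Pearson r to each, members of the LEA, storage, glyoxylate and lipid lists, and from other lists the 2 with the smallest p. *RCA*, *LHCB4.3* and *SBPASE* were named outside this rule. Alternatives were pseudocounts of 1 and 64, other filters, normalizations and variance models, array weights, an RNA quality covariate, the replicate number as a block and each array left out.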

Additional observations from a re-analysis of the deposited data

Results flagged for a closer look

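In 3 of 6 control ratios of RNA quality, which lie outside the gene comparison, each mutant array was above each wild type array. The 3′ to 5′ ratio was 3.13 ± 0.31 in mutant seedlings and 2.5 ± 0.07 in wild type seedlings for GAPDH in the first series of controls (SD, n = 3 each). For ubiquitin in that series it was 3.79 ± 0.29 in mutant seedlings and 3.40 ± 0.12 in wild type seedlings. For GAPDH in the second series it was 1.36 ± 0.12 in mutant seedlings and 1.14 ± 0.11 in wild type seedlings. The exact permutation test (two-sided) gave 0.1 for each, and no smaller p is possible with 3 arrays against 3. In the other 3 ratios the groups overlapped. The same test gave 0.5 and 0.3 for actin in the first and second series and 0.7 for ubiquitin in the second. For actin in the first series mutant replicate 1, at 4.05, was the lowest array. Both series cover the same genes, so the 6 ratios are not separate readings. Over the 6 arrays the log2 value of *M17* had r = −0.83 with the index made from all 6 ratios, and that of *ICL* −0.59. For deviations from the group means r was −0.58 for *M17* and −0.27 for *ICL*. These are descriptions of 6 arrays on which index and genotype move together.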

How the results depend on the processing

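The log2 change of *M17* stayed below 0 in all 17 alternatives (−2.59 to −0.99, the last with the RNA quality covariate) and that of *ICL* in all 16 (−1.58 to −0.58). *ICL* did not pass the filter on the lowest 50%, so that alternative gave it no value. With an array left out, *M17* ran from −2.59 to −1.33, *ICL* from −1.58 to −0.58, and their r from 0.60 to 0.93. The count of changed probe sets, 180, was 75 without the filter, 6 without the intensity trend, 24 with the RNA quality covariate and 74 to 248 with an array left out. The count of changed list genes, 0, was 0 to 3 with an array left out. The count of 3, without wild type replicate 3, includes AT2G28490, whose difference follows in part from its choice for likeness to *M17*. Same-numbered arrays did not deviate together (r = −0.03 to 0.00 in 3 pairs, and 0 of 3 mutant arrays correlated best with its own number). The replicate block gave 211 changed probe sets and 3 list genes. The list genes were *LEA18*, *COR15A* and AT2G28490, the last also picked for likeness to *M17*. SEs with the block were 0.29 for *M17* and 0.28 for *ICL*. The cause of these differences was not tested. Robust variance estimation raised the SE to 0.65 for *M17* and 0.55 for *ICL*. Signals below about 50 are close to the 25th percentile of an array, where log2 changes are understated.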

Other observations

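Named genes with a pattern opposite to those of *M17* and *ICL* were looked up after the values were seen. For *M17* the most opposite were AT5G63260 (r = −0.99), AT2G46580 (−0.99) and AT1G44960 (−0.98). AT2G46580 had signals of 592.9, 586.1 and 608.3 in mutant replicates 1, 2 and 3, and 534.5, 460.0 and 565.9 in wild type replicates 1, 2 and 3. For *ICL* the most opposite was AT4G07990 (r = −0.99). AT4G37480, the fourth, varied most among the 5, at 231.5, 136.6 and 161.2 in the mutant and 103.9, 74.0 and 149.3 in the wild type. Its log2 change was 0.64 ± 0.25 (SE from limma), given without a test because it was picked over the same arrays. In each of these genes wild type replicate 2 was the lowest array.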
